A study of Mus musculus with 8 samples.

Results

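Epidermal regulators and cornified envelope genes are described here in cultured mouse embryonic stem (ES) cells, a pluripotent cell type and not an epidermal one. The group holds 10 of the 17098 genes tested: Zfp750, Grhl1, Grhl2, Grhl3, Ovol1, Esrp1, Evpl, Ppl, Perp and Sfn. Members were chosen by name, and every probe set annotated to only 1 of these names was taken, which gave 12 probe sets. Grhl2 and Ovol1 had 2 probe sets each, and the one with the highest mean over all 8 arrays led, at a log2 level of 7.35 against 3.13 for Grhl2 and 2.85 against 2.70 for Ovol1.

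The tested cells had received 2.5 µM cisplatin for 8 h, on 4 arrays, and the controls the solvent dimethyl sulfoxide, also on 4 arrays. Cisplatin is a platinum drug that crosslinks DNA. Cells of both groups were HPRT deficient, of strain C57BL/6 and at passages 19 to 22, and had been kept on feeder cells and then on gelatin before the experiment. Replicates are numbered 3 to 6 in each group; the labels leave unsaid whether each number was its own culture, and the spread that the p-values are read against may therefore be technical. All values are log2 RMA expression (background-corrected, normalized between arrays and summarised per probe set by the authors), and a fold change is the cisplatin mean minus the control mean on that scale.

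The epidermis is a layered epithelium in which dividing basal cells move outward, stop dividing and build a cornified envelope, a crosslinked protein shell under the plasma membrane. The transcription factor p63 stands at the head of this programme, and Zfp750, the Grainyhead-like factors and Ovol1 act below or beside it. Envoplakin and periplakin, the products of Evpl and Ppl, link the envelope to desmosomes and keratin filaments, and transglutaminases crosslink it. Perp and Sfn are textbook targets of p53 as well as genes of stratified epithelia.

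Of the 10 genes, 6 rose with cisplatin, 2 fell and 2 did not pass the test (limma across all genes, Benjamini-Hochberg adjusted p under 0.05). Zfp750, Perp, Evpl, Sfn, Grhl3 and Grhl1 were the higher ones, by 0.42 to 2.01 on the log2 scale. Esrp1 and Grhl2 were the lower ones, by -0.58 and -0.37. Over all 17098 genes 11.6% were higher and 7.69% lower, 19.3% in either direction, and the median change was 0.01 against 0.51 for the 10 genes. The genes were brought together with results of this contrast known, so their count and median describe them and support nothing. Groups did not overlap for 7 of the 10 genes, with cisplatin above for 6 and below for 1; over all genes 24.3% had groups that did not overlap, 14.2% with cisplatin above and 10.1% below.

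**Figure D1:**
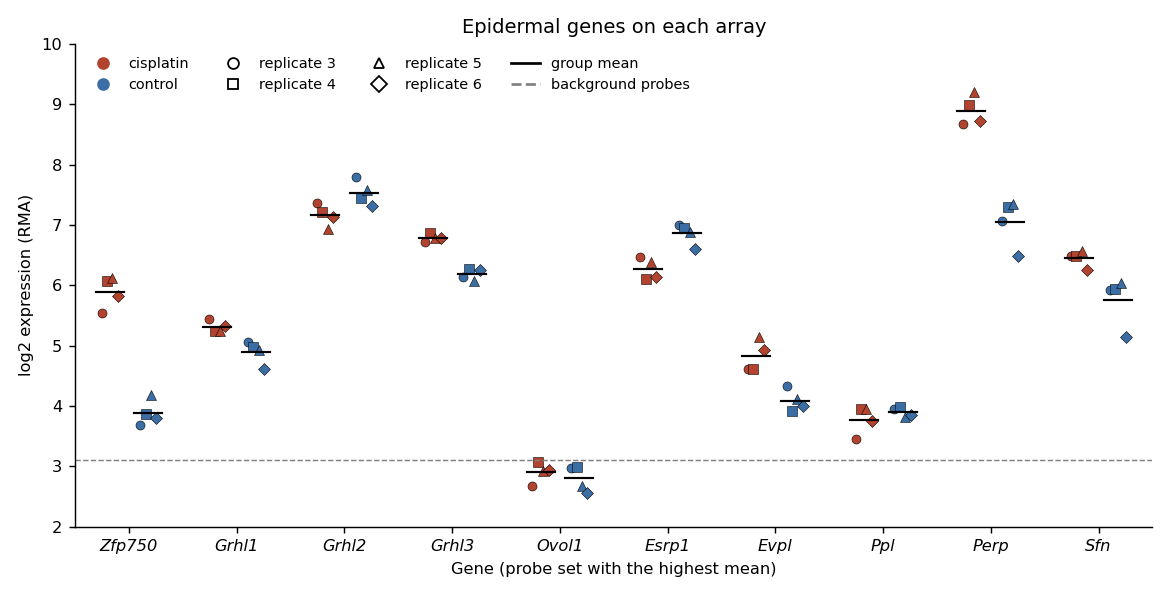
Log2 RMA expression (y axis) of the 10 genes on each array, with cisplatin (red) left of control (blue), a marker shape for each replicate number, black bars at the group means and a dashed line at the background probes. Zfp750 and Perp show the widest gap between the groups, Ovol1 lies under the dashed line on all arrays, and control replicate 6 lies low for Perp and Sfn.

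Array background was taken as the level of the array's nonspecific 25-base probes of 24 G or C letters, 3.10 on the log2 scale. Such probes ran from 2.10 at 5 G or C letters to 4.89 at 25, so statements of what lies below background depend on this choice. The mean of Ovol1 was below it in both groups and those of the other 9 genes above it in both. In such bulk RNA, fewer cells of a type and less RNA per cell cannot be told apart. Arrays of one group correlated at 0.997 to 0.998 over the tested genes and arrays of different groups at 0.992 to 0.995. Higher genes made up 60.2% of all calls, and 21.7% when each array was centred on its median. Centring gave 1087 higher and 3925 lower genes in place of 1989 and 1314. With the deposited values the tested genes had a median change of 0.01, near 0, and with centred arrays one of -0.12, a shift of -0.13. Centring applies this shift to every gene, so a sign or call that changed with it is not separate evidence on that gene. The same 8 epidermal genes kept their calls after centring, at 1.88 for Zfp750, 1.72 for Perp, 0.60 for Evpl, 0.56 for Sfn, 0.47 for Grhl3, 0.29 for Grhl1, -0.51 for Grhl2 and -0.72 for Esrp1.

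Among the regulators, Zfp750 had the widest change. Zfp750 is a zinc finger protein that p63 induces during late epidermal differentiation, where it promotes differentiation genes and restrains those of progenitor cells. It measured 5.55, 6.07, 6.12 and 5.83 on the cisplatin arrays of replicates 3 to 6, against 3.69, 3.86, 4.18 and 3.80 on the control arrays. Every cisplatin array was above every control array, by at least 1.37. The means were 5.89 ± 0.26 with cisplatin and 3.88 ± 0.21 in controls (SD, n = 4 each), a change of 2.01 ± 0.14 (SE; adjusted p = 2.39e-05, limma), or 4.03-fold. It held rank 9 among the increases of all 17098 genes. Genes that rose by at least 2-fold made up 0.877% of all genes, and Zfp750 and Perp were the 2 members among them.

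The 3 Grainyhead-like genes went in different directions. These factors bind DNA through a domain of their own kind and are needed for epithelial barriers: Grhl3 for the skin barrier, wound repair and closure of the neural tube in the mouse, Grhl2 for neural tube closure and for junction genes such as that of E-cadherin, and Grhl1 for desmosomal cadherin expression and hair anchorage.

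Grhl3 measured 6.71, 6.87, 6.78 and 6.79 on the cisplatin arrays and 6.14, 6.26, 6.07 and 6.26 on the control arrays. All cisplatin arrays lay above all control arrays, by at least 0.45, and the arrays within each group were close to each other. The change was 0.60 ± 0.06 (SE, 4 arrays against 4; adjusted p = 0.000178, limma), or 1.52-fold, with the smallest standard error of the 10 genes.

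Grhl1 measured 5.44, 5.24, 5.25 and 5.32 with cisplatin and 5.06, 4.98, 4.94 and 4.61 in controls. The groups were 0.19 apart, and control replicate 6 was the lowest array. Grhl1 changed by 0.42 ± 0.10 (SE; adjusted p = 0.0127, limma), or 1.34-fold. Normalizing by quantiles a further time ended this call (0.30, adjusted p = 0.0513), as did an ordinary t (adjusted p = 0.0516), within a range of 0.00883 to 0.0516 over 21 alternatives.

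Grhl2 measured 7.36, 7.22, 6.93 and 7.13 with cisplatin and 7.79, 7.45, 7.58 and 7.32 in controls. Here the groups overlapped: cisplatin replicate 3 was 0.04 above control replicate 6. The change was -0.37 ± 0.11 (SE; adjusted p = 0.0450, limma), close to the threshold, with a 95% interval of -0.63 to -0.12. Without cisplatin replicate 4, 5 or 6 the adjusted p was 0.0731, 0.114 and 0.0961, and without control replicate 3, 4 or 5 it was 0.108, 0.0660 and 0.100. The value itself ranged from -0.45 to -0.29 when 1 array was left out, and the adjusted p from 0.0101 to 0.127 over the 21 alternatives. The second Grhl2 probe set sat near background, at 3.11 ± 0.06 with cisplatin and 3.14 ± 0.15 in controls (SD, n = 4 each), and did not pass when every probe set was tested (-0.03, adjusted p = 0.876, limma). The mean of both probe sets gave -0.20 (adjusted p = 0.127, limma).

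Ovol1, a zinc finger repressor that takes part in the exit of epidermal progenitors from the cell cycle, was not above background. Its values were 2.68, 3.08, 2.93 and 2.94 with cisplatin and 2.98, 3.00, 2.68 and 2.56 in controls. Groups overlapped, and the difference of 0.10 ± 0.12 (SE; adjusted p = 0.620, limma) had a 95% interval of -0.16 to 0.36. Its second probe set was at 2.78 ± 0.10 with cisplatin and 2.62 ± 0.11 in controls (SD, n = 4 each; adjusted p = 0.211, limma).

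Promoters of 3 members, Sfn, Grhl3 and Grhl1, were held by the RefSeq table of assembly GRCm38.p6. No other member had an entry. The table held 4 promoter windows for these 3 members, and a single window for each gene is shown. Each is given from 250 bases before the transcription start down to the edge of the annotated gene, which for Grhl1 leaves 195 bases. Capitals mark matches, on either strand, to a Grainyhead-like motif (AACCNGTT, read as AACNGGTT on the other strand) or to the E-box that ZEB repressors bind (CACCTG, or CAGGTG on the other strand). The 2 motifs share no letters in any of these matches.
Sfn, chr4:133602169-133602418, minus strand: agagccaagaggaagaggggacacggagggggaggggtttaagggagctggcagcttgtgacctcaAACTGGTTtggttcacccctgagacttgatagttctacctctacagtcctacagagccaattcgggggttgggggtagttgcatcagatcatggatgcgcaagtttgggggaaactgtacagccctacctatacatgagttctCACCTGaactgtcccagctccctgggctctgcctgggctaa
Grhl3, chr4:135573633-135573882, minus strand: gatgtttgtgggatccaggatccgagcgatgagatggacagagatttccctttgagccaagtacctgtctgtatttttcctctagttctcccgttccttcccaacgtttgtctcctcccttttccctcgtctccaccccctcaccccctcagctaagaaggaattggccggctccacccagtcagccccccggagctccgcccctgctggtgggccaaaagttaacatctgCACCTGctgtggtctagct
Grhl1, chr12:24572037-24572231, plus strand: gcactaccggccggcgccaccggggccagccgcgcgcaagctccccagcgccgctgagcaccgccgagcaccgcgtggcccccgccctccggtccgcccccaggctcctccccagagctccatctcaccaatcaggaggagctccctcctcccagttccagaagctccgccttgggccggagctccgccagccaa

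The Sfn window held 1 Grainyhead-like match, 184 to 177 bases before the start, a motif found in 1.79% of the 32851 promoter windows of 250 bases in the table. It also held an E-box match 41 to 36 bases before the start, as the Grhl3 window did 19 to 14 bases before it; 17.2% of all windows hold that E-box. Neither the Sfn nor the Grhl3 nor the Grhl1 windows matched the OVOL motif (CCGTTA, or TAACGG on the other strand; 2.18% of all windows) or the p53 half-site consensus (7.13% of all windows). A match is a run of letters and not a measured binding site, and no match says only that these letters are not in this window.

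Esrp1, an RNA-binding protein that sets the epithelial pattern of alternative splicing, fell. It measured 6.48, 6.10, 6.39 and 6.15 with cisplatin and 7.01, 6.96, 6.89 and 6.59 in controls. All cisplatin arrays were below all control arrays, the nearest by 0.12. Means were 6.28 ± 0.18 with cisplatin and 6.86 ± 0.19 in controls (SD, n = 4 each), a change of -0.58 ± 0.11 (SE; adjusted p = 0.00476, limma), or 1.50-fold lower. It held rank 211 among the decreases. The call held in all 21 alternatives, with adjusted p from 0.000603 to 0.0318. Splicing itself was not measured, since the labelling kit primes at the 3′ end of messenger RNA.

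Of the plakin pair that scaffolds the cornified envelope, Evpl rose and Ppl did not pass the test. Evpl measured 4.61, 4.61, 5.15 and 4.93 on the cisplatin arrays, against 4.34, 3.92, 4.12 and 4.00 on the control arrays. Its groups were 0.27 apart, and cisplatin replicates 3 and 4 were the arrays nearest to the controls. The change was 0.73 ± 0.13 (SE; adjusted p = 0.00387, limma), or 1.66-fold, and it passed in all 21 alternatives.

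Ppl measured 3.45, 3.95, 3.96 and 3.75 with cisplatin and 3.95, 3.98, 3.82 and 3.85 in controls. The groups overlapped, with cisplatin replicate 3 the lowest array. The difference was -0.12 ± 0.11 (SE; adjusted p = 0.498, limma), with a 95% interval of -0.36 to 0.12, and none of its 20 alternatives brought it past the threshold. Whether Evpl and Ppl differ in their response was not tested.

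Perp, a tetraspan membrane protein of desmosomes that p63 controls in skin and p53 in dying cells, had the second widest change. It measured 8.67, 8.99, 9.21 and 8.72 with cisplatin and 7.06, 7.29, 7.35 and 6.49 in controls. Cisplatin arrays were above control arrays by at least 1.32, and control replicate 6 was 0.74 below the mean of the other 3 controls. The change was 1.85 ± 0.19 (SE; adjusted p = 0.000140, limma), or 3.60-fold, at rank 15 among the increases. Without control replicate 6 it was 1.66 (adjusted p = 0.000188, limma).

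Sfn encodes 14-3-3 sigma, a protein that holds cyclin B and its kinase in the cytoplasm after DNA damage and that epidermal cells use to leave the stem cell state. Its values were 6.48, 6.49, 6.57 and 6.25 with cisplatin and 5.92, 5.95, 6.04 and 5.14 in controls. The groups were 0.21 apart, and control replicate 6 lay 0.83 below the mean of the other 3 controls. The change was 0.69 ± 0.18 (SE; adjusted p = 0.0218, limma), or 1.61-fold, with a 95% interval of 0.29 to 1.09. Without control replicate 6 the change was 0.48, with an adjusted p of 0.00434. An ordinary t ended the call (adjusted p = 0.0918), and so did leaving out cisplatin replicate 4 or 5 (adjusted p = 0.0529 and 0.0625), within a range of 0.00393 to 0.0918 over the 21 alternatives.

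**Figure D2:**
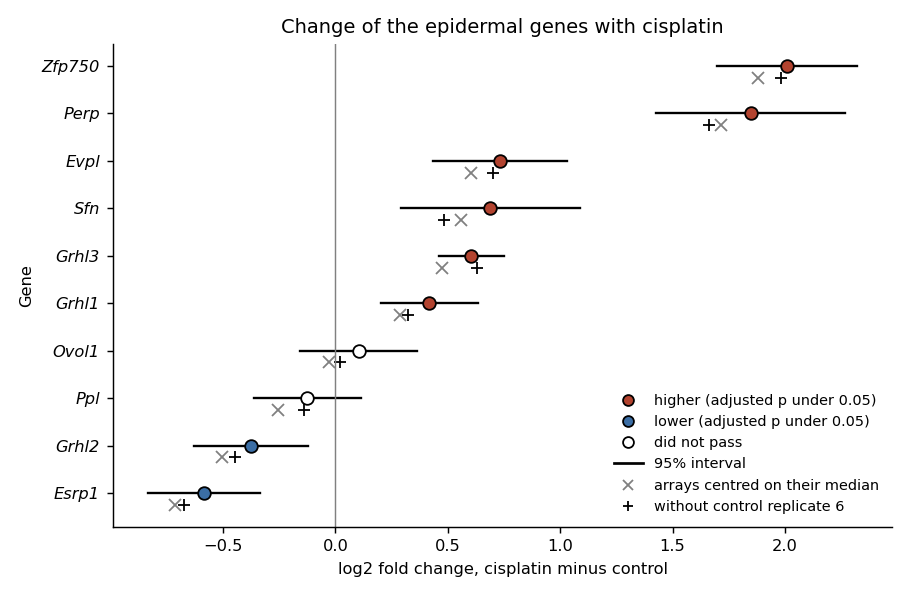
Log2 fold change (x axis, cisplatin minus control) of the 10 genes with 95% intervals over 4 arrays against 4, filled red or blue where the adjusted p was under 0.05. Crosses give the value after centring arrays and plus signs that without control replicate 6; Ovol1 is the gene whose cross lies on the other side of 0, at -0.03.

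Part of the variation from array to array within a group was shared by several of the genes, but not by all. Control replicate 6 was the lowest control array for 6 of the 10 genes (Grhl1, Grhl2, Ovol1, Esrp1, Perp and Sfn) and the highest for none, while over all 17098 genes it was the lowest for 28.7% and the highest for 29.4%. Grhl3 on this array was 0.11 above the mean of the other 3 controls. Its difference from the other controls had a median of -0.31 over the 10 genes and of 0.00 over all genes, with an SD of 0.17. In related lists the median of this difference was -0.50 over 5 keratin genes of simple epithelium and -0.21 over 21 epithelial junction genes. It was 0.01 over 32 other cornified envelope genes, 0.02 over 13 keratinocyte markers and 0.01 over 9 ES cell markers. On the cisplatin side, replicate 3 was the lowest array for 5 of the 10 genes, against 28.3% of all genes. Leaving out control replicate 6 left 6 genes called higher and 2 called lower, with a median change of 0.40.

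**Figure D3:**
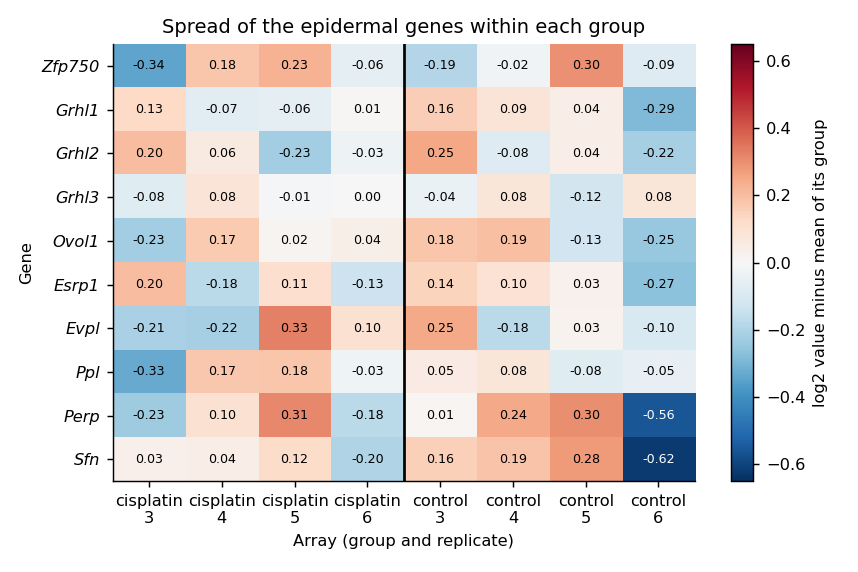
Log2 value of each of the 10 genes (rows) on each array (columns, cisplatin left of control) minus the mean of its own group. Control replicate 6 reaches -0.62 for Sfn and -0.56 for Perp, the largest deviations shown.

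Most of the other cornified envelope genes measured were below background. A list of 37 was written down with earlier results of these data known. It held precursors, small proline-rich and late envelope proteins, transglutaminases and lipid-barrier enzymes, among others. Of these genes 32 were measured. In both groups 21 were below background and 11 were not, against 5359 below it of all 17098 genes. The list thus held a larger share of genes without signal, so its shares of calls do not compare like with like. In the list 1 was higher, none lower and 31 did not pass (limma), against 11.6% higher and 7.69% lower over all genes. The median change of the list was -0.01, and at an unadjusted p under 0.05 the counts were 4 higher and 2 lower (12.5% and 6.25%), against 18.4% and 12.7% of all genes. Tgm1, the membrane transglutaminase that crosslinks the envelope, was the higher one, at 7.21 ± 0.12 with cisplatin and 6.83 ± 0.20 in controls (SD, n = 4 each), a change of 0.38 ± 0.10 (SE; adjusted p = 0.0262, limma). Its groups overlapped, and the call was lost without cisplatin replicate 3, 4 or 6 (adjusted p = 0.0633, 0.0616 and 0.0653) or control replicate 4, 5 or 6 (0.0692, 0.0706 and 0.0581) and after centring (0.25, adjusted p = 0.101), within a range of 0.00490 to 0.101. Ivl, which encodes the envelope precursor involucrin, was below background at 2.89 ± 0.10 with cisplatin and 3.07 ± 0.09 in controls (SD, n = 4 each; adjusted p = 0.0897, limma), and passed after centring (-0.31, adjusted p = 0.00647), within a range of 0.00647 to 0.306 over its alternatives.

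Defining markers of keratinocytes were mostly dim. Of 13 measured, 7 were below background in both groups, as were 5359 of all 17098 genes. In the list 3 were higher and 1 lower, while 11.6% of all genes were higher and 7.69% lower. The basal keratin Krt5 was at 3.42 ± 0.25 with cisplatin and 3.34 ± 0.08 in controls, its partner Krt14 at 2.70 ± 0.13 and 2.64 ± 0.05, and the suprabasal keratin Krt1 at 2.85 ± 0.06 and 2.81 ± 0.10 (SD, n = 4 each). Krt10, the partner of Krt1, was at 6.17 ± 0.06 with cisplatin and 6.05 ± 0.17 in controls. None of these 4 keratins passed the test, and their changes, from 0.04 to 0.13, turned negative after centring. Trp63, the gene of p63, named here after its values were seen, was below background at 2.54 with cisplatin and 2.58 in controls (adjusted p = 0.715, limma).

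The keratinocyte markers that rose were Krt16, a keratin of stressed skin, by 0.46 ± 0.08, the hemidesmosome integrin gene Itgb4 by 0.42 ± 0.10 and the keratin Krt15 by 0.38 ± 0.11 (SE, 4 arrays against 4), all at control means from 3.01 to 3.11, near background. Itga6, the alpha partner of Itgb4 that many ES cells also carry, fell by 0.25 ± 0.06 on the log2 scale, and by 0.38 after centring. Itgb4 lost its call without control replicate 5 (adjusted p = 0.0511; range over its alternatives 0.00285 to 0.0688). Krt15 lost it without cisplatin replicate 3, 5 or 6 (adjusted p = 0.0663, 0.0654 and 0.0834), without control replicate 3 or 4 (0.0918 and 0.0873), after centring (0.25, adjusted p = 0.107) and after a further quantile normalization (adjusted p = 0.0530; range 0.0136 to 0.107). The summed level of the 13 markers was 9.38 to 9.51 on the cisplatin arrays and 9.58 to 9.67 on the control arrays. Itga6 alone made up 75.5% to 77.2% of that sum with cisplatin and 79.0% to 82.7% in controls. Without Itga6, a step taken after its values were seen, the sum of the other markers was 7.34 to 7.40 with cisplatin and 7.14 to 7.32 in controls. The groups then stood the other way round, but closer together than the size of the centring shift of -0.13. The brightest of these other markers was Krt10, which did not pass, and 7 were below background in both groups.

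Of 14 desmosome and plakin genes measured, 2 rose, 3 fell and 9 did not pass, with a median of 0.05. Over all genes 11.6% were higher, a share near that of this list, and 7.69% lower. Eppk1, the plakin epiplakin that binds keratin filaments, measured 6.99, 6.93, 6.96 and 6.71 with cisplatin and 5.81, 5.96, 5.68 and 5.30 in controls. It changed by 1.21 ± 0.13 (SE; adjusted p = 0.000186, limma), at rank 88 among the increases, and its groups did not overlap. Plec, the cytolinker plectin, was higher by 0.36 ± 0.10, a call lost without cisplatin replicate 4 or 5 (adjusted p = 0.0622 and 0.0647), control replicate 5 or 6 (0.0594 and 0.0645), after centring (0.23, adjusted p = 0.0937) or without probe sets that can match several transcripts (0.27, adjusted p = 0.0512), within a range of 0.00173 to 0.0937. The lower genes were Pkp4, a plakophilin-related junction protein, at -0.55 ± 0.07, and the giant plakins Dst at -0.47 ± 0.08 and Macf1 at -0.40 ± 0.06. For Dst the mean of its probe sets gave -0.26.

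Of 21 epithelial junction genes 3 were higher and 2 lower, with a median of 0.15. Over all genes 11.6% were higher and 7.69% lower, shares near those of this list. St14, the membrane protease matriptase that skin needs for its barrier, measured 7.29, 7.70, 7.64 and 7.12 with cisplatin and 6.32, 6.29, 6.35 and 6.02 in controls. Its groups did not overlap, and it changed by 1.19 ± 0.13 (SE; adjusted p = 0.000229, limma), at rank 92 among the increases. The tight junction genes F11r and Cldn4 were higher by 0.38 ± 0.07 and 0.47 ± 0.14, and centring lowered F11r to 0.25. The adhesion genes Epcam and Cdh1, both also ES cell genes, were lower, at -0.39 ± 0.08 and -0.23 ± 0.06; centring took Cdh1 to -0.36, and the most variable probe set of Epcam did not pass (-0.38, adjusted p = 0.0530, the highest over its alternatives, of which the lowest was 0.000219). Cldn4 lost its call without cisplatin replicate 3, 4 or 5 (adjusted p = 0.0783, 0.0952 and 0.0757), without control replicate 5 or 6 (0.0770 and 0.0652) and after centring (0.34, adjusted p = 0.0771), within a range of 0.00241 to 0.116.

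Among 22 other transcription factors of the epidermis, 1 was higher and 1 was lower. In both groups 10 were below background, as were 5359 of all 17098 genes. Over all genes 11.6% were higher and 7.69% lower. Cebpb, a leucine zipper factor of suprabasal keratinocytes, rose by 0.64 ± 0.11 (SE; adjusted p = 0.00219, limma), or by 0.37 as the mean of its probe sets. Klf4, a factor of both the skin barrier and the pluripotent state, fell by 0.40 ± 0.07 on the log2 scale (adjusted p = 0.00331, limma). Of the 3 relatives of the Grainyhead-like genes, Tfcp2l1, a factor of naive ES cells, was lower at -0.29 ± 0.08. Its call was lost without cisplatin replicate 3, 5 or 6 (adjusted p = 0.0651, 0.0698 and 0.0611) or control replicate 4 or 6 (0.0676 and 0.0598), within a range of 0.00319 to 0.0698.

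None of the 6 other 14-3-3 genes passed the test with limma, against 19.3% of all genes, and their changes had a median of -0.01. Of the 6, 1 was lower at an unadjusted p under 0.05, against 12.7% of all genes. An ordinary t with adjustment called 1 higher and 1 lower, against 1627 and 1153 of all 17098 genes. With 6 genes, such counts cannot be told from the shares over all genes. Of 11 mesenchymal genes 3 fell and none rose, with a median of -0.08, while 7.69% of all genes were lower and 11.6% higher. Zeb1, a repressor of epithelial genes, fell by 0.68 ± 0.06 on the log2 scale (adjusted p = 0.000103, limma), or by 0.25 as the mean of its probe sets; the cadherin gene Cdh2 was at -0.51 ± 0.10 and the fibronectin gene Fn1 at -0.32 ± 0.07.

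**Figure D4:**
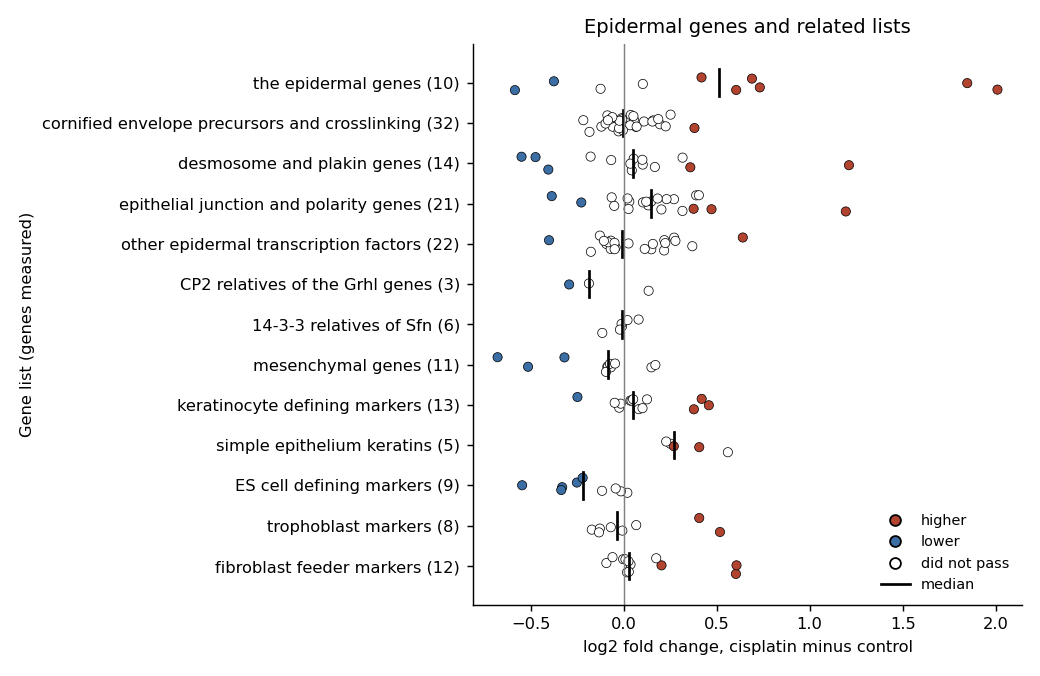
Log2 fold change (x axis, cisplatin minus control) of the 10 epidermal genes and of each measured gene in 12 related lists (rows), red where higher and blue where lower at an adjusted p under 0.05, with black bars at the medians. The median is 0.51 for the 10 genes and between -0.22 and 0.27 for the other lists.

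Markers of the cells themselves and of other cells that could be present moved as follows. Of 9 ES cell markers measured, 5 fell and none rose, while 7.69% of all genes were lower and 11.6% higher. The summed levels of these markers were 14.74 to 14.79 on the cisplatin arrays and 14.85 to 14.90 on the control arrays. Pou5f1 was at 12.19 ± 0.06 with cisplatin and 12.23 ± 0.06 in controls, and Sox2 at 11.24 ± 0.03 and 11.35 ± 0.04 (SD, n = 4 each); both passed after centring (-0.17 and -0.25, adjusted p = 0.0443 and 0.00702), and Sox2 also with an intensity trend or an ordinary t statistic (adjusted p = 0.0108 and 0.0276). Over all alternatives the adjusted p ranged from 0.0443 to 0.868 for Pou5f1 and from 0.00702 to 0.276 for Sox2. Esrrb, Zfp42, Lin28a, Nanog and Utf1 were lower by -0.55 to -0.22. For Nanog the call was lost without cisplatin replicate 4 or 5 (adjusted p = 0.0587 and 0.0603) or control replicate 3 or 6 (0.0563 and 0.0517), within a range of 0.000716 to 0.0603. Centring took Utf1 to -0.35 and Nanog to -0.38, and the mean of the probe sets took Lin28a to -0.22.

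Keratins of simple epithelium had 2 of 5 genes higher, against 11.6% of all genes: Krt7 by 0.41 ± 0.10 and Krt20 by 0.27 ± 0.07 (SE). Both were dim, at control means of 3.57 and 3.23. The brighter Krt18, Krt8 and Krt19, named after their values were seen, had control means of 8.62, 8.25 and 5.56. Their changes of 0.25, 0.23 and 0.56 did not pass. The summed levels of the 5 genes overlapped, at 9.61 to 10.02 with cisplatin and 9.19 to 9.78 in controls. Without Krt18, which made up the largest share, the sums were 8.56 to 8.99 with cisplatin and 8.13 to 8.72 in controls. Krt20 lost its call without cisplatin replicate 4 or 6 (adjusted p = 0.0534 and 0.0548), without control replicate 3 (0.0532) and after centring (0.14, adjusted p = 0.176), within a range of 0.0122 to 0.176. Krt7 lost it after centring (adjusted p = 0.0600), after a further quantile normalization (0.0591) and with an ordinary t (0.0666), within a range of 0.0128 to 0.0666. Trophoblast markers had 2 of 8 higher, again against 11.6% of all genes: Krt7 and also Ascl2, by 0.52 ± 0.13. Their summed levels were 6.87 to 7.05 with cisplatin and 6.63 to 6.92 in controls. Without Ascl2, which made up the largest share, the sums were 6.17 to 6.35 with cisplatin and 6.18 to 6.36 in controls. Ascl2 lost its call without cisplatin replicate 4 or 5 (adjusted p = 0.0522 and 0.0559) or control replicate 3 (0.0527), within a range of 0.00407 to 0.0755.

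Fibroblast markers, listed because feeder cells had been used, had 3 of 12 higher, against 11.6% of all genes. Thy1 was higher by 0.61 ± 0.15, Mmp2 by 0.60 ± 0.08 and Fbln2 by 0.20 ± 0.05 (SE). The summed levels of the list were 7.32 to 7.66 with cisplatin and 7.05 to 7.28 in controls. Without Mmp2, which made up the largest share, the sums overlapped, at 6.69 to 7.09 with cisplatin and 6.55 to 6.85 in controls. The collagen genes of that list, Col1a1, Col1a2 and Col3a1, named after their values were seen, were at 3.37, 2.48 and 3.49 with cisplatin and 3.46, 2.49 and 3.55 in controls. Fbln2, below background in both groups, lost its call without cisplatin replicate 5 or 6 (adjusted p = 0.0681 and 0.0711), control replicate 3, 4 or 5 (0.0727, 0.0728 and 0.0610) or after centring (0.07, adjusted p = 0.351), within a range of 0.0200 to 0.351. Thy1 lost it without control replicate 3 (adjusted p = 0.0519) and after a further quantile normalization (adjusted p = 0.0524), within a range of 0.00572 to 0.0773. What part shifts in these cell types had in the changes of the epidermal genes was not tested.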

How the data were processed

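Per the labels' protocols, total RNA of 8 samples was labelled from the 3′ end of transcripts and each was hybridised to 1 array. The authors deposited log2 values. RMA and limma are named in the submitters' processing notes; their versions were not found in the labels. Of 45141 probe sets, 28898 have 1 gene in the platform annotation; 551 with several genes, 15588 with none listed and 104 controls were left out. Symbols were updated by Entrez identifier from RefSeq (GRCm38.p6). A gene was represented by its brightest probe set on average.

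Groups were taken from the sample titles. Differences were tested in R 4.3.3 with limma 3.58.1 (lmFit, then eBayes), with treatment as the single factor and no filter on dim genes; p-values were adjusted by Benjamini and Hochberg over 17098 genes and read at 0.05. On simulated data of as many genes, 99 of 100 genes changed by 1 on the log2 scale and 65 of 100 changed by 0.5 were recovered, with 9 false calls. The simulation changed a far smaller share of genes than the 19.3% called in the data, and its noise was independent between genes. Its counts are therefore no error rates of the reported test. The 4 arrays a group limit the precision.

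The members and the 12 lists of related genes were chosen with earlier results of these data known. Named are all members, the called genes of each list (none had over 5 in a direction) and Pou5f1, Nanog, Sox2, Krt5, Krt14, Krt1, Krt10, Ivl and Tgm1. A summed level is the log2 of the sum of a list's linear values. The alternatives tried were probe set choice, dim genes, normalization, centring, test settings, threshold, a replicate block and each array left out. Same-numbered arrays were checked for pairing. Figures used matplotlib 3.10.9 in Python 3.11.15.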

Additional observations from a re-analysis of the deposited data

Results flagged for a closer look

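In 4 of 102 groups of 4 arrays looked at (each named gene or member probe set, in each treatment group), a single array stood apart by Dixon's ratio of the gap to the range; chance gives about 1 in 20. Sfn on control replicate 6 was at 5.14, against 5.92 to 6.04 on the other controls, with a ratio of 0.864. Macf1 on cisplatin replicate 6 was at 8.43, against 8.36 to 8.37 on the other cisplatin arrays, a small distance. Klf4 on cisplatin replicate 3 was at 9.35, against 9.55 to 9.58. Krt5 on cisplatin replicate 6 was at 3.04, below the background level, against 3.51 to 3.58.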

How the results depend on the processing

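Over 21 alternatives, the number of epidermal genes called higher was 4 to 6 and the number called lower 1 or 2. The 6 higher genes became 4 with an ordinary t statistic or at a threshold of 0.01. The lower ones became 1 with the mean of the probe sets, an ordinary t statistic or a threshold of 0.01, and 1 to 2 when an array was left out, since Grhl2 lost its call. The median change of the 10 genes ranged from 0.40 to 0.54 with an array left out and was 0.38 after centring. An ordinary t statistic also ended calls whose losses under other settings are listed above. Its adjusted p was 0.1235 for Grhl2, 0.0834 for Tgm1, 0.0843 for Plec, 0.116 for Cldn4 and 0.0651 for Tfcp2l1. For Krt15 it was 0.100, for Itgb4 0.0688, for Ascl2 0.0755 and for Thy1 0.0773. Over all genes, centring gave 1087 higher and 3925 lower, the threshold of 0.01 gave 1113 and 742, and testing every probe set gave 2222 lower probe sets. Differences that did not pass the test turned negative after centring: Ovol1 -0.028, Krt5 -0.049, Krt10 -0.0051, Krt14 -0.080 and Krt1 -0.088. Krt14 also turned to -0.029 with the mean of its probe sets and to -0.11 without probe sets that can match several transcripts; the causes were not tested beyond the shift that centring applies to every gene. With the replicate number as a block, 2111 genes were higher and 1336 lower, and the same 8 epidermal genes were called (Grhl2 at an adjusted p of 0.0270, limma). Same-numbered arrays' deviations correlated at 0.20, 0.18, 0.20 and 0.06 for numbers 3 to 6; the 12 combinations of different numbers ran from -0.17 to 0.11, 11 of them at or below 0.056. Numbers 3, 4 and 5 thus correlated best with their own number in both groups. Cisplatin replicate 6 also correlated best with control replicate 6, at 0.06. Control replicate 6 was the exception, as it correlated best with cisplatin replicate 3, at 0.11. As 1 pair was under 0.1 and the labels give the numbers no meaning, the fit without the block was kept as the one reported. Small changes of dim genes such as Ovol1 are limited by signal near background.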
